A study of Mus musculus with 12 samples.

Results

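The genes described are 9 inflammatory CC chemokines and receptors of the mouse lung, chosen by their symbols out of 55414 genes in the expression table, namely the ligands Ccl2, Ccl3, Ccl4, Ccl5, Ccl7, Ccl8 and Ccl12 and the receptors Ccr1 and Ccr2. Whole-lung RNA was sequenced from 12 mice on day 4 after 50 µg of lipopolysaccharide (LPS), a component of the bacterial cell wall that was put into the airways to induce acute lung injury. The IL-10 B-KO group (6 mice, here the knockout) carries floxed Il10 alleles that mb1-Cre deletes, and the IL-10 B-WT group (6 mice) is its control, so that every lung compared had received LPS and the levels without LPS were not analysed here. The comparison asks how the loss of IL-10, an anti-inflammatory cytokine, from B cells bears on the chemokines that draw leukocytes into the injured lung. The mb1 promoter, that of Cd79a, drives Cre in the B cell lineage. The remaining alleles of the IL-10 B-WT mice, the age and the sex are not given in the sources used here.

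Chemokines are small secreted proteins that guide leukocytes along a gradient, and CC chemokines are those with a pair of adjacent cysteines near the N-terminus. They act on G protein-coupled receptors of the leukocyte surface, which signal through Gi proteins to the cytoskeleton. In the inflamed lung, the monocyte chemoattractant proteins Ccl2, Ccl7 and Ccl12 act on Ccr2 and bring Ly6C-positive monocytes from the blood, whereas Ccl3 and Ccl5 act on Ccr1, among other receptors, which monocytes, macrophages and neutrophils carry to different degrees. Ccl8, a further monocyte chemoattractant protein, is known in the mouse as a ligand of Ccr8.

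The 9 genes lie in 3 groups of neighbours in GRCm38 (GENCODE release M21 annotation). Ccl2 (chromosome 11, 82035571 to 82037453, plus strand), Ccl7 (82045712 to 82047525), Ccl12 (82101845 to 82103400) and Ccl8 (82115185 to 82116799) stand on the same strand within 81.2 kb, with Ccl11 among them. Ccl5 (chromosome 11, 83525778 to 83530518, minus strand), Ccl3 (83647844 to 83649355, minus strand) and Ccl4 (83662584 to 83664683, plus strand) span 138.9 kb, with Ccl9 and Ccl6 among them. Ccr1 (chromosome 9, 123962124 to 123968692, minus strand) and Ccr2 (124101950 to 124113557, plus strand) span 151.4 kb. All are protein-coding, and none shares exon sequence with another annotated gene, although Ccl2 overlaps the bounds of Gm17268 on the opposite strand.

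Promoter sequences were at hand for Ccl3, Ccl8, Ccl12, Ccr1 and Ccr2 in a RefSeq table on GRCm38.p6. Of these, Ccl8 and Ccl12 hold the same TATA-box run of letters at nearly the same place. The 100 bases before the RefSeq start of 3 ligands are shown. They are written 5′ to 3′ on the strand of the gene, and the capitals mark TATAAAAG.
Ccl12, chr11:82101745-82101844, plus strand: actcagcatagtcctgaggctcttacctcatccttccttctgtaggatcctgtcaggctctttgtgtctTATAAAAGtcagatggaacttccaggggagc
Ccl8, chr11:82115085-82115184, plus strand: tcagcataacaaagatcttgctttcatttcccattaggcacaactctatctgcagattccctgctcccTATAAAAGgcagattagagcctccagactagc
Ccl3, chr11:83649379-83649478, minus strand: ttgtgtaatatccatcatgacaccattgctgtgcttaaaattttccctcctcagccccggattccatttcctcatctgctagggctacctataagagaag
The run begins at position -31 of Ccl12 and -32 of Ccl8, counted back from the RefSeq start. The RefSeq starts of Ccl8, Ccl12 and Ccr1 match the GENCODE bounds above, whereas that of Ccl3 lies upstream of them and that of Ccr2 inside the gene. The exact run TATAAAAG was found on neither strand in Ccl3, Ccr1 or Ccr2, and in 0.886% of the windows of 100 bases before 32851 starts. The printed Ccl3 sequence does hold the similar letters tataagag close to its RefSeq start, so that a TATA box in Ccl3 is not excluded. Only TATAAAAG was searched for, on both strands, and it was chosen after the sequences were seen. A match is not a binding site, and any bearing of the run on RNA levels was not tested.

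The expression values are TPM, a transcript abundance that is corrected for the length of each gene and scaled to a common sum. The sums of the libraries were nearly the same, from 991646 to 994430 TPM. TPM keep no read depth, so that the error of each value could not be computed and rests on the spread between lungs. Between 21380 and 24138 genes were above 0 TPM per lung. Il10 lay between 0 and 0.88 TPM in control lungs and between 0 and 0.58 TPM in knockout lungs, so that whole-lung Il10 did not separate the genotypes. Cd79a, a B cell receptor component, lay between 15.3 and 259 TPM in control lungs and between 0 and 5.73 TPM in knockout lungs. Lung epithelial markers were abundant in every library, summing to between 22562 and 112120 TPM. A pair of lungs stood apart from their groups. On the first principal component of all genes, control replicate 1 (-57.0) lay among the knockout lungs and knockout replicate 2 (26.5) among the control lungs. Their Cd79a levels, 15.3 and 4.35 TPM, went with their labels. The B cell markers summed to 85.4 TPM in knockout replicate 2 and 61.4 TPM in knockout replicate 6, against 10.8 to 17.1 TPM in the other knockout lungs, and to 70.6 to 129 TPM in the control lungs other than replicate 2 (899 TPM). Results without control replicate 1 and knockout replicate 2 are given beside those with them. Since these lungs were singled out by their expression, such results are not independent evidence.

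Over all 12 lungs, the 9 genes had higher mean and median TPM in knockout than in control lungs, yet none passed the test across all genes. The differences ranged from 0.83 (Ccr2) to 2.43 (Ccl2) on the log2(TPM + 1) scale, and Ccl5 and Ccr1 had the lowest p-values. Genes were called changed at an adjusted p of at most 0.05 in limma with Benjamini-Hochberg adjustment and an absolute log2 fold change of 1 or more. All 9 passed the filter of at least 1 TPM in at least 6 lungs, and 0 of 9 were called, against 75 of 15148 genes tested (0.495%), of which 4 were higher (0.0264%). At an unadjusted limma p of at most 0.05 there were 5 of 9 (Ccl2, Ccl5, Ccl7, Ccr1 and Ccr2), all with higher values in knockout, against 12.5% of all genes in either direction and 6.83% with higher values. Since the 9 genes were picked with earlier results known, their share is given as a description only. Of all genes tested, 63.2% had a log2 fold change above 0, and the median was 0.10. This median was -0.01 after each library was centred on its own median, under which the 9 genes kept differences of 0.73 to 2.32.

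Ccl2, the principal ligand of Ccr2, was at 107, 7.33, 8.22, 2.09, 0.95 and 2.20 TPM in control replicates 1 to 6 and at 22.3, 2.67, 258, 28.7, 190 and 29.9 TPM in knockout replicates 1 to 6. Only 2 knockout lungs, replicates 3 and 5, lay above every control lung, whereas 5 of 6 lay above the control lungs other than replicate 1. The means were 21.3 ± 42.0 TPM in control lungs and 88.5 ± 107 TPM in knockout lungs (SD, n = 6). The log2 fold change was 2.43 ± 1.09 (SE), with an adjusted p of 0.381 in limma and an exact permutation p of 0.0887 (n = 6). Over the 12 lungs Ccl2 spanned 271-fold, the second widest range of the 9 after that of Ccl3 (303-fold).

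Ccl7, which binds Ccr2 among other receptors, followed nearly the same order of lungs at lower levels. It lay between 0.48 and 37.8 TPM in control lungs (median 3.09) and between 3.41 and 82.2 TPM in knockout lungs (median 10.4). The highest control lung was again replicate 1, and the knockout lungs above it were replicates 3 and 5. Its log2 fold change was 1.86 ± 0.85 (SE), with an adjusted p of 0.393 in limma and an exact permutation p of 0.0909 (n = 6). Within a lung, Ccl2 stood at 0.783 to 3.76 times the TPM of Ccl7.

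Ccl12, a mouse ligand of Ccr2, lay between 0.55 and 39.8 TPM in control lungs (median 6.16) and between 4 and 50.3 TPM in knockout lungs (median 18.5). The overlap was wide, since 1 knockout lung lay above all control lungs and 1 control lung lay below all knockout lungs. The log2 fold change was 1.05 ± 0.73 (SE), with an adjusted p of 0.534 in limma and an exact permutation p of 0.227 (n = 6). Its balance with Ccl2 was uneven, from 0.456 TPM of Ccl2 per TPM of Ccl12 in control replicate 6 to 9.40 in knockout replicate 3.

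Ccl8 had the smallest log2 fold change of the ligands. It lay between 6.03 and 95.0 TPM in control lungs (median 33.2) and between 10.2 and 167 TPM in knockout lungs (median 80.4). Its highest control value was in replicate 2 and not in replicate 1, and knockout replicate 2, at 10.2 TPM, was the second lowest of all lungs. Its log2 fold change was 0.95 ± 0.71 (SE), with an adjusted p of 0.564 in limma and an exact permutation p of 0.266 (n = 6).

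Ccl3, a macrophage inflammatory protein that binds Ccr1, was at 288, 2.33, 27.1, 0.95, 0.96 and 5.83 TPM in control replicates 1 to 6 and at 55.5, 5.29, 46.7, 83.2, 99.9 and 84.1 TPM in knockout replicates 1 to 6. The highest lung of all was a control lung, replicate 1, while 5 of 6 knockout lungs lay above the other control lungs. The means, 54.2 ± 115 and 62.4 ± 34.2 TPM (SD, n = 6), were therefore close, whereas the medians were 4.08 and 69.4 TPM. The log2 fold change was 2.35 ± 1.13 (SE), with an adjusted p of 0.413 in limma and an exact permutation p of 0.115 (n = 6). Without control replicate 1 it was 3.34 ± 0.79 (SE, adjusted p = 0.0397, limma).

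Ccl4, a macrophage inflammatory protein and the neighbour of Ccl3 in the genome, had the same shape on a smaller scale. It lay between 2.82 and 122 TPM in control lungs (median 3.87) and between 10.2 and 44.6 TPM in knockout lungs (median 33.1). Apart from replicates 1 and 3, the control lungs were at or below 4.04 TPM, under all 6 knockout lungs. Its log2 fold change was 1.48 ± 0.77 (SE), with an adjusted p of 0.444 in limma and an exact permutation p of 0.141 (n = 6), and it was 2.20 ± 0.49 (SE, adjusted p = 0.0365, limma) without control replicate 1.

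Ccl5, which T cells, NK cells and activated macrophages are known to release and which binds Ccr1 and Ccr3, was the most abundant of the 9 in every lung. It was at 531, 162, 559, 124, 156 and 241 TPM in control replicates 1 to 6 and at 854, 465, 375, 416, 684 and 726 TPM in knockout replicates 1 to 6. All knockout lungs lay above 4 of the 6 control lungs, and control replicates 1 and 3 lay among the knockout lungs. The means were 296 ± 197 and 587 ± 194 TPM (SD, n = 6), a ratio of 1.98. The log2 fold change was 1.18 ± 0.39 (SE), with a limma p of 0.00911 and an adjusted p of 0.281. The exact permutation p of 0.0281 (n = 6, 1 of 9 such tests, not adjusted) became 0.0519 without control replicate 4, control replicate 5 or knockout replicate 1. Ccl5 made up between 42.1% and 93.0% of the summed TPM of the 7 ligands, and this sum lay between 156 and 1198 TPM in control lungs and between 501 and 1296 TPM in knockout lungs.

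Ccr1, a receptor of monocytes, macrophages and neutrophils for Ccl3, Ccl5 and Ccl7, was at 35.0, 4.77, 9.69, 3.03, 1.30 and 3.20 TPM in control replicates 1 to 6 and at 15.3, 5.84, 65.7, 21.04, 70.1 and 40.6 TPM in knockout replicates 1 to 6. All knockout lungs lay above 4 of the 6 control lungs, and 3 lay above every one of them. The means were 9.50 ± 12.8 and 36.5 ± 26.9 TPM (SD, n = 6). Its log2 fold change was 2.08 ± 0.68 (SE), with a limma p of 0.00924 and an adjusted p of 0.282. The exact permutation p of 0.0303 (n = 6, not adjusted) lay between 0.00866 and 0.0584 when each lung was left out in turn, and was above 0.05 without replicate 4, 5 or 6 of control or replicate 3, 5 or 6 of knockout. Without control replicate 1, the log2 fold change was 2.56 ± 0.58 (SE, adjusted p = 0.0370, limma).

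Ccr2, the receptor that classical monocytes need to leave the bone marrow, had the smallest log2 fold change of the 9. It was at 27.0, 10.0, 20.8, 8.20, 4.10 and 9.07 TPM in control replicates 1 to 6 and at 30.2, 12.3, 19.7, 20.9, 30.8 and 16.0 TPM in knockout replicates 1 to 6. As with Ccl5, 4 control lungs lay below all knockout lungs and replicates 1 and 3 lay among them. The means were 13.2 ± 8.73 and 21.6 ± 7.50 TPM (SD, n = 6), and the log2 fold change was 0.83 ± 0.37 (SE, adjusted p = 0.381, limma), with an exact permutation p of 0.0714 (n = 6). In bulk lung, more cells that carry a receptor and more receptor RNA per cell cannot be told apart, and the same holds for the ligands.

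**Figure D1:**
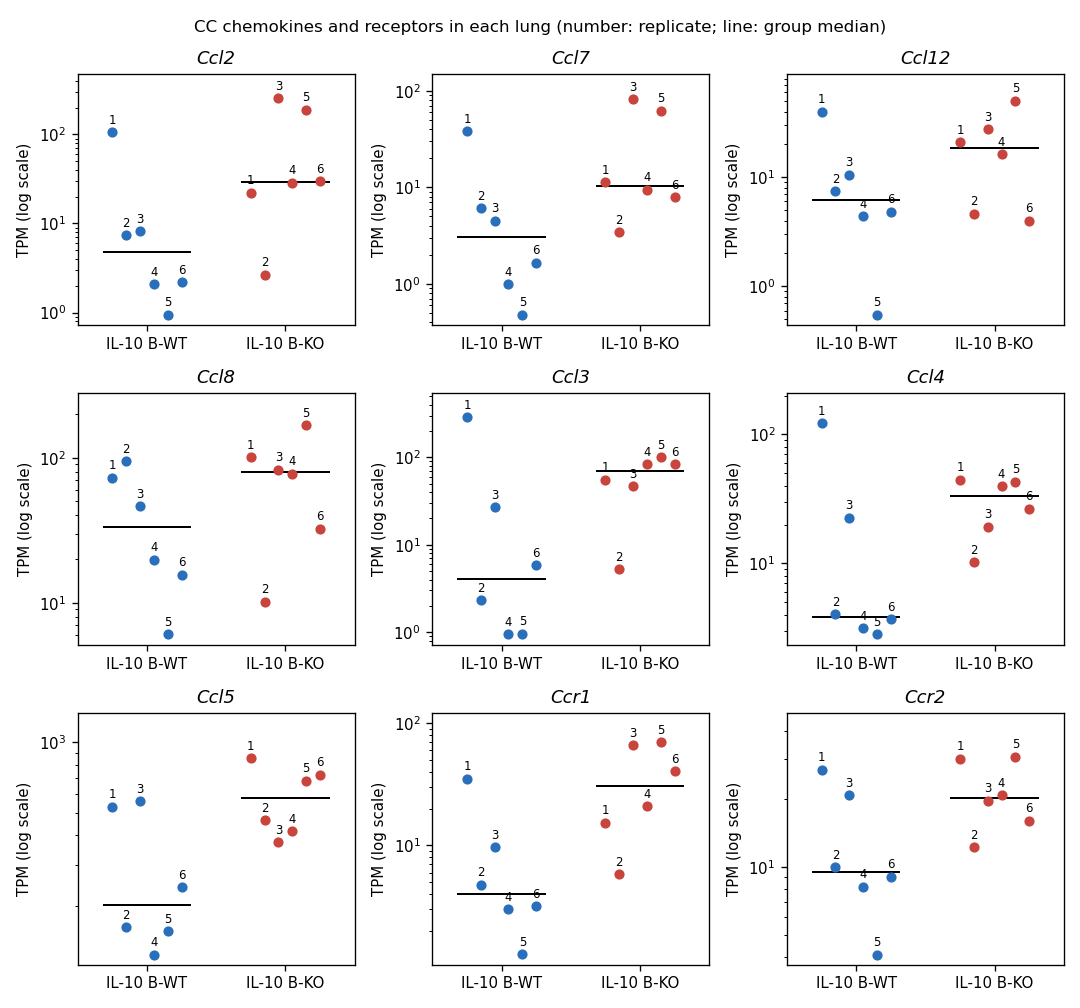
TPM of each of the 9 genes on a log axis in the 6 IL-10 B-WT lungs (blue) and the 6 IL-10 B-KO lungs (red), each point a lung numbered by its replicate and each line the group median. Replicate 1 is the highest IL-10 B-WT lung for 7 genes and replicate 2 the lowest IL-10 B-KO lung for 7 genes, and no gene separates the genotypes completely.

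The same few lungs set the ends of most ranges. Control replicate 1 was the highest control lung for 7 of the 9 genes, Ccl5 and Ccl8 excepted. Knockout replicate 2 was the lowest knockout lung for 7, Ccl5 and Ccl12 excepted. Control replicate 5 was the lowest of all lungs for 7, and in that library a single mitochondrial gene, mt-Atp8, took 111430 TPM. This gene also had the highest TPM in knockout replicates 3 to 6, at 16994.9 to 58464.5 TPM, but in no other control lung. Its bearing on the other values was not tested. No gene of the 9 had groups that did not overlap, as 1.02% of all genes tested had.

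Without control replicate 1, 4 of 9 were called (Ccl3, Ccl4, Ccl5 and Ccr1), and without both control replicate 1 and knockout replicate 2, 7 of 9 were called, all but Ccl8 and Ccl12. In these fits, 576 (3.85%) and 1430 (9.69%) of all genes tested were called. With both left out, the log2 fold changes were 3.89 for Ccl2 (adjusted p = 0.00416, limma), 3.92 for Ccl3 (0.00224), 2.97 for Ccr1 (0.00227), 1.45 for Ccl5 (0.0247) and 1.22 for Ccr2 (0.0285). Those of Ccl8, 1.68 (0.0855), and Ccl12, 1.83 (0.0629), did not pass. Every one of the 9 differences was larger in these 10 lungs than in all 12.

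**Figure D2:**
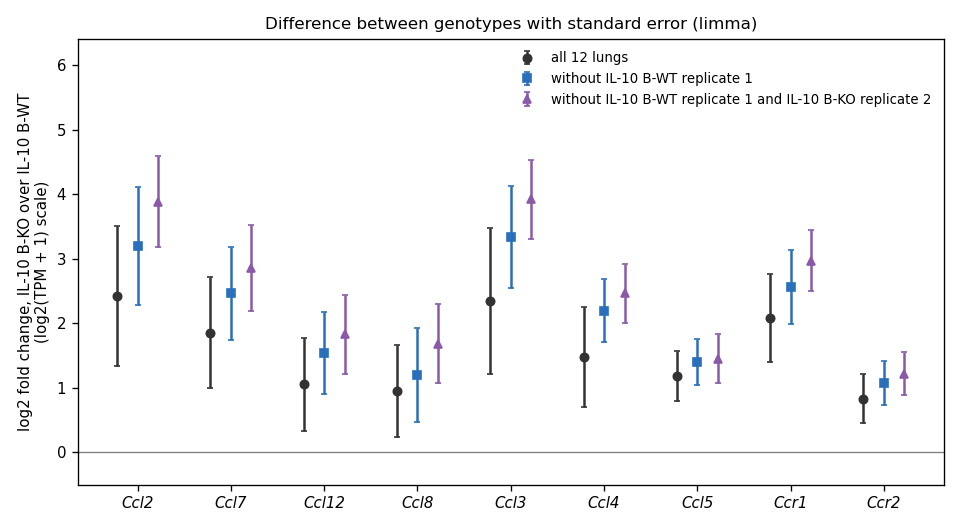
Log2 fold change of IL-10 B-KO over IL-10 B-WT on the log2(TPM + 1) scale, with its standard error from limma, for all 12 lungs (circles), without IL-10 B-WT replicate 1 (squares) and without that lung and IL-10 B-KO replicate 2 (triangles). For Ccl2 the values are 2.43, 3.20 and 3.89, and for each of the 9 genes the order of the 3 fits is the same.

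By mean TPM over the 12 lungs the order of levels was Ccl5 (441), Ccl8 (60.6), Ccl3 (58.3), Ccl2 (54.9), Ccl4 (28.5), Ccr1 (23.0), Ccl7 (19.0), Ccr2 (17.4) and Ccl12 (15.9). Ccl5 was above Ccl8 in 12 of 12 lungs (exact sign-flip permutation test over 4096 arrangements, adjusted p = 0.00391 over 8 neighbouring pairs). Ccr1 was above Ccl7 in 9 of 12 lungs (exact permutation test, adjusted p = 0.0430). The other 6 neighbouring pairs did not differ beyond their spread between lungs, and Ccl7 had the higher mean but the lower value in 9 of 12 lungs when set against Ccr2. By the median, the order was Ccl5, Ccl8, Ccl3, Ccl4, Ccr2, Ccl2, Ccr1, Ccl12 and Ccl7, in which 1 neighbouring pair differed. With 1 lung left out, between 1 and 3 neighbouring pairs passed, and it was 1 pair in 9 of the 12 cases, all but those without control replicate 2, knockout replicate 1 or knockout replicate 3.

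The 9 genes varied together between lungs. Pearson's r of log2(TPM + 1) over the 12 lungs was between 0.488 and 0.981 in the 36 pairs (median 0.811), and 35 pairs by Pearson's r and 32 by Spearman's rho had an adjusted permutation p of at most 0.05. Within control lungs r lay between 0.465 and 0.990 (median 0.887) and within knockout lungs between -0.142 and 0.961 (median 0.638), with 34 pairs above 0 in both. The closest pair was Ccl2 and Ccl7, with r = 0.981 and rho = 0.965 (permutation p = 1e-05, the smallest that the resamples can give), and with 0.990 in control, 0.961 in knockout and 0.962 without the 2 lungs farthest from the median of Ccl2. Ccl3 and Ccl4, which lie next to each other, had r = 0.965 and rho = 0.916. The neighbours Ccl8 and Ccl12 had r = 0.878, and Ccl12 had higher r with Ccr2 (0.905) and Ccl7 (0.896).

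Ccl5 stood farthest from the rest. It had the lowest r of all with Ccl8 (0.488, adjusted p = 0.107, permutation test) and was between 0.590 and 0.609 with Ccl2, Ccl7 and Ccl12. With Ccl3, Ccl4 and Ccr2, r was 0.839, 0.847 and 0.851. Within knockout lungs, Ccl5 had r of -0.07 with Ccl2 and -0.14 with Ccl7, the pairs below 0. Without the 2 lungs farthest from the median, r over the 36 pairs lay between 0.169 and 0.962, and the lowest values were those of Ccl5 with Ccl8 (0.169), Ccl7 (0.318) and Ccl12 (0.345). Those with Ccl7 and Ccl12 therefore rest on control replicates 4 and 5, the lungs left out. The values of a library share a common total and the pairs share genes, so that they are not independent.

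**Figure D3:**
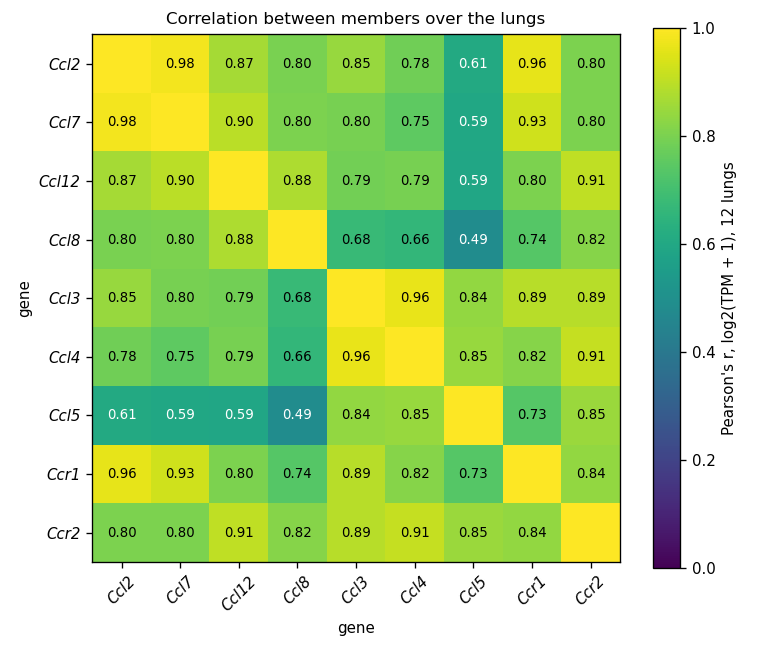
Pearson's r of log2(TPM + 1) over the 12 lungs for each pair of the 9 genes, from 0 (dark) to 1 (yellow). Ccl2, Ccl7 and Ccr1 form a block of high values, Ccl3 and Ccl4 a second one, and the row of Ccl5 holds the lowest value, 0.488 with Ccl8.

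Genes whose levels followed each member most closely were taken from the 15148 tested by Pearson's r over the 12 lungs, as a description. For Ccr1 they were Tlr13 (0.997), a receptor for bacterial RNA, Cd33 (0.991), a myeloid lectin, and Slc16a3 (0.991), a lactate transporter. Ccl2 was closest to B4galt1 (0.995), Ywhag (0.993) and Tubb6 (0.990), and Ccl7 to Ccl2 (0.981), Ckap4 (0.979) and Lrrc59 (0.975). Ccl3 was closest to 6530402F18Rik (0.987), Fcer1g (0.984), the common chain of Fc receptors, and Hcar2 (0.980), which also led for Ccl4 (0.968) before Oas3 (0.966) and Psmb9 (0.965). The leading genes for Ccl5 were H2-K1 (0.959), B2m (0.935) and H2-Q7 (0.933), all of MHC class I, of which the H2 genes resemble each other so closely that their reads may be shared. Ccr2 was closest to Psmg4 (0.980), Ppt1 (0.972) and Csf2 (0.971), Ccl12 to Tmem176b (0.969), Csnk2b (0.961) and Ostc (0.958), and Ccl8 to Gm15056 (0.944), Cenpa (0.944) and Bcat2 (0.943).

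The rest of the CC system showed no common direction. Of 14 other CC ligands, 11 were tested, 6 with higher and 5 with lower values in knockout, and 0 were called. Their median log2 fold change was 0.03, against 0.10 for all genes. The ends were Ccl9 (1.09 ± 0.44 SE, adjusted p = 0.353, limma), a macrophage chemokine that lies between Ccl5 and Ccl3, and Ccl19 (-1.29 ± 0.81 SE, adjusted p = 0.502, limma), the ligand of Ccr7 in lymphoid tissue. Ccl6, beside Ccl9, was at 0.51 ± 0.25 (SE), and Ccl11, between Ccl7 and Ccl12, was at -0.30 ± 0.40 (SE), so that genes inside the clusters did not all have the values of the 9.

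Of 9 other CC receptors, 3 were tested and 0 were called. Ccr7, the receptor that guides dendritic cells and lymphocytes to lymph nodes, had a log2 fold change of -0.50, and Ccr6, a receptor of B cells and some T cells, had one of -1.12.

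Atypical receptors bind chemokines without the usual signal and take them up, and all 5 of the list were tested, 4 with higher and 1 with lower values and 0 called. The ends were Ackr3 (0.98 ± 0.53 SE, adjusted p = 0.460, limma) and Ackr4 (-1.39 ± 0.48 SE, adjusted p = 0.304, limma), which scavenges Ccl19 and related chemokines, and the median was 0.25. Of 21 genes for signalling downstream of chemokine receptors, 20 had higher values, 0 were called, and 3 with higher values and 1 with lower passed an unadjusted limma p of 0.05. The median was 0.31, and the ends were the kinase Fgr (1.35 ± 0.62 SE, adjusted p = 0.387, limma) and Elmo1 (-0.33 ± 0.12 SE, adjusted p = 0.337, limma), a partner of Dock2 in Rac activation.

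Markers of monocytes and interstitial macrophages and those of neutrophils varied with these chemokines and receptors between lungs. Which of them varied more closely was not tested. The monocyte and macrophage list holds Itgam, the gene of CD11b, by which the authors also gated lung neutrophils, so that it is not particular to monocytes. Of 13 markers of monocytes and interstitial macrophages, 13 had higher values in knockout lungs, 12 at an unadjusted limma p of at most 0.05 and 0 called, with a median log2 fold change of 1.65 and ends of 2.35 (Itgam) and 0.70 (Cx3cr1). Their summed TPM lay between 237 and 3189 in control lungs, where replicate 1 held the 3189 and the next lung 1292, and between 602 and 4351 in knockout lungs, where replicate 2 held the 602 and the next lung 1926. Over the 12 lungs this sum had r of 0.801 (Ccl5) to 0.972 (Ccr1) with the 9 genes, all 9 with an adjusted permutation p of at most 0.05 over 27 relations with 3 marker lists. Without the 2 lungs farthest from the median, r was between 0.640 and 0.963. Within control it was between 0.762 and 0.983, and within knockout between 0.248 (Ccl5) and 0.929 (Ccr1).

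Of 11 neutrophil markers, 11 had higher values, 8 at an unadjusted limma p of at most 0.05 and 0 called, with a median of 1.48 and ends of 2.09 (Retnlg) and 0.38 (Ltf). Their sum lay between 395 and 2587 TPM in control lungs and between 1179 and 7919 TPM in knockout lungs, and had r of 0.616 (Ccl8) to 0.957 (Ccr1) with the 9 genes, of which 8 passed by Pearson's r and 7 by Spearman's rho, and r of 0.575 to 0.953 without the 2 farthest lungs. The 15 T and NK cell markers, 10 with higher and 5 with lower values, had a median of 0.18 and sums of 71.4 to 281 and 83.9 to 425 TPM. Their r with Ccl5, which these cells are known to make, was 0.485 (rho = 0.517, adjusted p = 0.149, permutation test). Within control lungs Ccl5 had r of 0.633 with the T and NK cell list and 0.864 with the monocyte and macrophage list, and within knockout lungs 0.483 and 0.248, and the difference between the lists was not tested. For the T and NK cell list, r with the 9 genes lay between 0.035 and 0.526, with none past the threshold. The part of any cell type in the differences of the 9 genes was not tested.

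Set against 1000 TPM of the monocyte and macrophage markers of the same lung, a ratio added after the values were seen and given without a test, the 9 genes did not share a direction. The mean log2 difference, knockout minus control, was 1.15 for Ccl3, 1.12 for Ccl2, 0.74 for Ccl7, 0.73 for Ccr1 and 0.06 for Ccl4. It was -0.31 for Ccl12, -0.44 for Ccl5, -0.64 for Ccl8 and -0.71 for Ccr2. The ranges overlapped widely, as for Ccr1, with 5.19 to 10.98 TPM per 1000 in control lungs and 6.11 to 16.8 in knockout lungs.

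**Figure D4:**
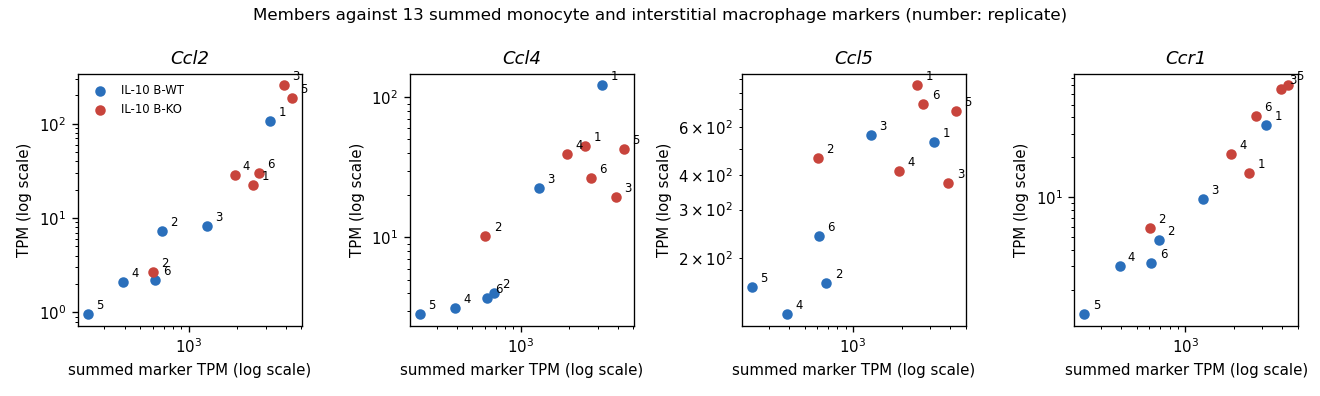
TPM of Ccl2, Ccl4, Ccl5 and Ccr1 (vertical, log scale) against the summed TPM of 13 monocyte and interstitial macrophage markers (horizontal, log scale), each point a lung numbered by its replicate, IL-10 B-WT in blue and IL-10 B-KO in red. IL-10 B-WT replicate 1, at 3189 TPM of markers, lies among the IL-10 B-KO lungs, and IL-10 B-KO replicate 2, at 602 TPM, among the IL-10 B-WT lungs.

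Lists of the other cells of the lung gave smaller or opposite differences. Alveolar macrophage markers had a median of 0.33 (8 of 10 with higher values, with ends Chil3 and Car4), dendritic cell markers -0.05 (3 of 6 tested with higher values, with ends Itgae and Cd209a) and epithelial markers 0.27 (5 of 8, with ends Sftpa1 and Scgb1a1), with 0 called in each. Endothelial markers had lower values in 8 of 8 (median -0.37, 0 called, with ends Emcn and Car4), although the highest of them, Emcn, at -0.09, turned to 0.054 without knockout replicate 3. Car4, at -0.81, stands in both the alveolar macrophage and the endothelial list, so that its value is not particular to either cell type. Fibroblast and mural markers had lower values in 6 of 8 (median -0.63, with ends Col1a1 and Inmt), with 1 called, Pdgfrb, a pericyte receptor (-1.44 ± 0.29 SE, adjusted p = 0.0456, limma). B cell markers had lower values in 8 of 8 (median -1.96), with 1 called, Cd79a (-4.16 ± 0.71 SE, adjusted p = 0.0222, limma), while Fcer2a was at -0.61. Pdgfrb was not called in 15 of 21 alternatives (adjusted p from 0.0111 to 0.184, limma) and Cd79a not in 6 of 21 (0.00219 to 0.0999).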

How the data were processed

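Lung RNA of 12 LPS-treated mice was analyzed from 1 table, in which the authors deposited TPM per gene and library, calculated with RSEM. Per the labels, fastp, HISAT and GRCm38.p5 were also used, and their versions and the annotation release are not given in the sources used here. RSEM divides reads between similar genes by estimation. Columns were matched to samples by name, with 0 left unused, and no libraries were identical. TPM keep no depth, so that no count model was fitted. P-values of the genotype tests weigh the difference between the groups against the spread between mice.

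Genes with at least 1 TPM in at least 6 libraries (15148) were fitted with limma 3.58.1 in R 4.3.3 (lmFit, eBayes with a trend) on log2(TPM + 1), which understates the fold change of low genes, with genotype as the only term and Benjamini-Hochberg adjustment, two-sided. The steps were tested on simulated data. Each member was further tested by exact permutation of the genotype labels on mean log2(TPM + 1) (two-sided, 924 arrangements, smallest p 0.00216), and correlations by 100000 permutations. These ran in Python 3.11.15 with SciPy 1.17.1, pandas 2.3.3, NumPy 2.4.6 and matplotlib 3.10.9. Coordinates came from GENCODE M21, matched by ID for 52081 genes.

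The 9 members and the 13 gene lists were chosen with earlier results of these data known. Named genes were the 9 members, Il10, Cd79a, the called and the most extreme genes of each list and the 3 genes most like each member. A result that falls under this rule is not reported here. The 21 alternatives were another pseudocount (0.1), 2 other filters, 3 other scalings, array weights, a replicate block, each of 12 lungs left out and 2 lungs left out together. Same-numbered lungs did not deviate together.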

Additional observations from a re-analysis of the deposited data

Results flagged for a closer look

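In Ccl3, IL-10 B-KO replicate 2 was at 5.29 TPM, far below the other 5 IL-10 B-KO lungs, which were at 46.7 TPM or more. Its gap to the nearest lung, as a share of the range of the group on the log2(TPM + 1) scale, was above the critical value of Dixon's test for 6 samples. It was the only one of 18 groups (9 genes in 2 genotypes) that was, and chance would give about 1 in 20 groups.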

How the results depend on the processing

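No log2 fold change of the 9 genes changed sign in any of the 21 alternatives. The counts of members did change, and the cause was not tested. Called members numbered 1 with array weights (Ccr1, 2.03, adjusted p = 0.0485, limma), where 318 of 15148 genes tested were called. They numbered 0 to 4 when each lung was left out in turn, and 7 without both control replicate 1 and knockout replicate 2. Members at an unadjusted limma p of at most 0.05 numbered 2 with no filter and 3 after rescaling without immunoglobulin genes. The number was 2 to 8 when each lung was left out, with 8 without either of those 2 lungs, and 9 without both. Of all genes tested, 2678 with higher and 1068 with lower values of 14943 passed this threshold without control replicate 1. Without knockout replicate 2 these counts were 1685 and 1124 of 14998, and without both 3221 and 1342 of 14762. With no filter they were 1223 and 1364 of 31629, and after the rescaling 743 and 902 of 15090. Without both, the log2 fold changes were 3.89 (Ccl2), 3.92 (Ccl3), 2.46 (Ccl4), 1.45 (Ccl5), 2.86 (Ccl7), 2.97 (Ccr1) and 1.22 (Ccr2), and the exact permutation p was 0.00794 for Ccl2, Ccl3 and Ccl7, 0.0159 for Ccl4, 0.0476 for Ccl12 and 0.0238 for Ccr2. When each lung was left out, the log2 fold change lay between 1.89 and 3.20 for Ccl2, 1.89 and 3.34 for Ccl3, 1.19 and 2.20 for Ccl4, 0.98 and 1.41 for Ccl5, 1.40 and 2.46 for Ccl7, 0.52 and 1.43 for Ccl8, 0.59 and 1.53 for Ccl12, 1.77 and 2.56 for Ccr1 and 0.58 and 1.07 for Ccr2, and for Emcn it lay between -0.23 and 0.054. The exact permutation p then lay between 0.0216 and 0.165 for Ccl2, 0.0130 and 0.195 for Ccl3, 0.0130 and 0.238 for Ccl4, 0.0130 and 0.0519 for Ccl5, 0.0173 and 0.182 for Ccl7, 0.0823 and 0.509 for Ccl8, 0.0714 and 0.444 for Ccl12, 0.00866 and 0.0584 for Ccr1 and 0.0195 and 0.139 for Ccr2. It was 0.0541 for Ccr1 on raw TPM, and 0.0390 and 0.0411 for Ccr2 after quantile normalization and median centring. Neighbouring pairs in the order of levels that differed numbered 1 by the median and 1 to 3 with a lung left out.

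The replicate numbers did not pair the lungs, since same-numbered lungs correlated between -0.292 and 0.046. With the replicate block, 45 genes in all and 0 members were called, and the exact sign-flip permutation p was 0.0625 for Ccl5 and 0.0938 for Ccr1.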
